A study of Mus musculus with 8 samples.

Results

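The 8 genes described here handle zinc and related metals in cells. They are 2 metallothioneins (Mt1, Mt2), 4 importers of the Slc39 or ZIP family (Slc39a4, Slc39a5, Slc39a8, Slc39a14) and 2 exporters of the Slc30 family (Slc30a1, Slc30a10). They were chosen by gene symbol, with earlier results of these data known, from the 17353 genes of the deposited tables. All 8 were in the tables and all 8 had enough counts to be tested, among 13381 tested genes. RNA came from the colonic mucosa of 8 wild-type (WT) male C57BL/6J mice of unstated age, taken on day 7, with 2 animals per group chosen for sequencing in a way that was not stated. Control mice received an enema of normal saline, with no DSS named for them. DSS model mice drank 3% dextran sulfate sodium (DSS), a polymer toxic to the colonic lining, and were given the same saline enema. Mesalazine mice were colitis mice given the anti-inflammatory drug mesalazine at 50 mg/kg by enema, and Kuiyangling mice were colitis mice given this preparation at 10 g/kg by enema. The enema volume was 0.2 ml in every group.

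Metallothioneins are small proteins rich in cysteine that bind zinc, copper and cadmium and buffer free zinc. Their genes are textbook targets of the zinc sensor MTF1, which binds metal response elements in promoters, and they also respond to glucocorticoids and to inflammatory signals. ZIP transporters move zinc into the cytosol from outside the cell or from organelles, and Slc30 transporters move metal out of the cytosol. In the gut epithelium these proteins serve the uptake of dietary zinc, the return of zinc to the lumen and the exchange of manganese and iron.

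The libraries held 15560946 to 17843715 counts. All 5 colon epithelium markers were detected in every library, at a summed level of 11240.1 to 16448 CPM (counts scaled to library size, with TMM factors). Some libraries differed in ways the groups do not explain. Ribosomal protein genes took 12.7% of counts in mesalazine replicate 1 against 3.35% to 6.68% elsewhere. Across genes, a library's deviation from the mean of all libraries was related to gene length, with Spearman rho from -0.579 in mesalazine 1 and -0.493 in DSS model 2 to 0.502 in control 1. Control 2 had a summed level of 1176 CPM for 5 B and plasma cell markers, against 111 to 263 CPM in the other 7 libraries. The 3 posterior gut markers (Hoxa13, Hoxb13, Hoxd13) summed to 225 CPM in control 2 and 0.920 CPM in mesalazine 1, with 5.49 to 38.1 CPM in the other 6 and Hoxd13 at 0 in 4 libraries. The part of these differences in the results below was not tested, except where a value without a library or with a correction for gene length is given. In bulk tissue, fewer cells of a type and less RNA per cell cannot be told apart.

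The metallothioneins were the most abundant of the 8 genes on the deposited FPKM scale (fragments scaled to gene length and library size), which corrects for gene length and so allows levels of different genes to be compared. Over the 8 libraries the mean was 568 FPKM for Mt1 and 548 FPKM for Mt2, each above 98.7% of tested genes. Slc39a4 followed at 155 FPKM and Slc39a5 at 51.5 FPKM. Slc30a1 stood at 17.4 FPKM, Slc30a10 at 7.47 FPKM, Slc39a8 at 5.41 FPKM and Slc39a14 at 5.13 FPKM. Within libraries the ratio of Mt1 to Mt2 was 0.883 to 1.76 in FPKM and 1.66 to 3.31 in counts. Their near equality in FPKM thus rests on the gene lengths used. The order of the last 3 genes changed between libraries. The order of the first genes turned in DSS model 1, where Slc39a4 at 221 FPKM exceeded Mt1 at 132 FPKM and Mt2 at 74.9 FPKM. The genes also differed in how much they varied: from the lowest to the highest library Mt2 spanned 24.5-fold and Mt1 19.8-fold in CPM, Slc30a10 spanned 9.07-fold, and Slc39a5 spanned 1.80-fold. The spread of log2 CPM over libraries was larger for Mt2 than for 98.5% of tested genes and larger for Slc39a5 than for 32.0%.

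**Figure D1:**
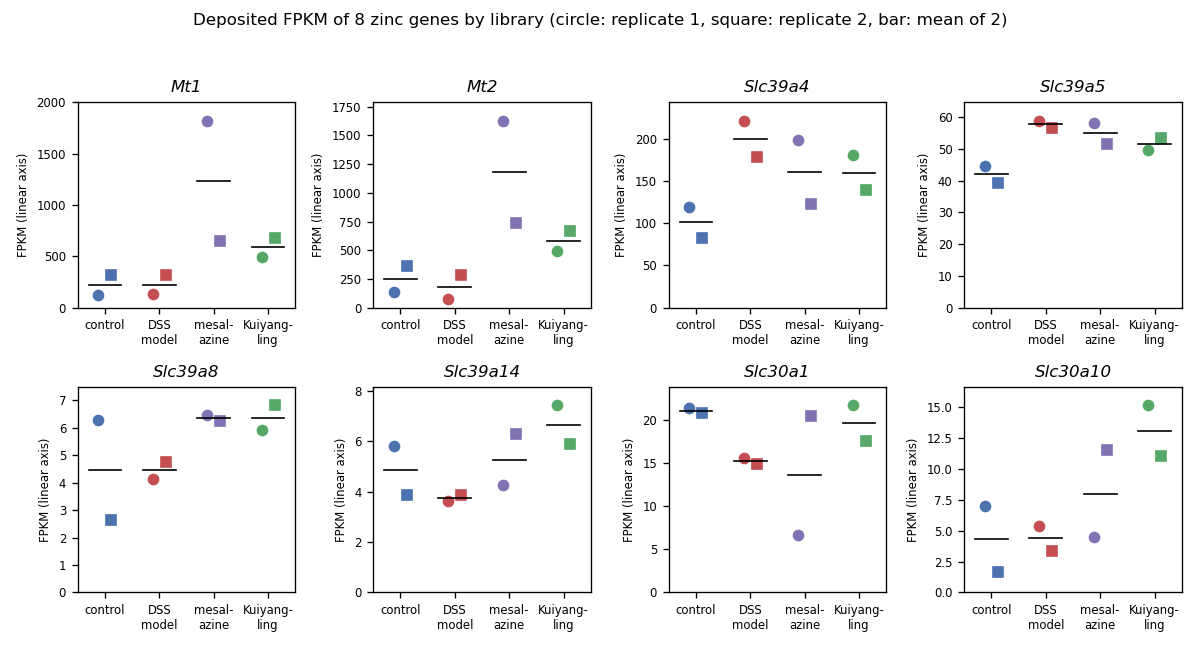
Deposited FPKM (vertical axes, linear, from 0) of each gene in each of the 4 groups (horizontal axes); points are single libraries and bars are means of 2. Mt1 reached 1820.2 FPKM in mesalazine 1, while Slc39a5 stayed between 39.3 and 58.9 FPKM in all 8 libraries.

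The metallothioneins were higher in the treated mice than in untreated colitis mice. Mt1, the gene of metallothionein 1, stood at 115 and 333 CPM in controls (replicates 1 and 2), 147 and 346 CPM in the DSS model, 2283 and 653 CPM with mesalazine, and 509 and 653 CPM with Kuiyangling. Every treated library was above every control and DSS model library, while the control and DSS model ranges overlapped almost wholly. Mt2, the gene of metallothionein 2, stood at 69.6 and 198 CPM in controls, 44.3 and 161 CPM in the DSS model, 1087 and 392 CPM with mesalazine, and 274 and 340 CPM with Kuiyangling. Mt2 thus followed Mt1 closely, with mesalazine 1 as the highest for each gene. Together the 2 genes took 0.281% of all counts in mesalazine 1, 0.109% in mesalazine 2, 0.0790% and 0.108% with Kuiyangling, and 0.0179% to 0.0536% in the 4 untreated libraries.

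For the DSS model against controls neither metallothionein passed the test. Between the DSS model and controls the log2 change was 0.14 for Mt1 (SE 0.64; adjusted p = 0.928, edgeR quasi-likelihood test) and -0.38 for Mt2 (SE 0.67; adjusted p = 0.789). The replicates of each of these groups were 2.35-fold to 3.64-fold apart, a wider gap than that between the group means. The sign also depended on 1 library: without control 2 the change was 1.09 for Mt1 and 0.56 for Mt2, and without control 1 it was -0.44 and -0.95. With the length correction it was -0.49 for Mt1 and -1.36 for Mt2 (adjusted p = 0.711 and 0.324, edgeR), so the size for Mt2 also depended on that choice. In the same libraries the 5 neutrophil markers summed to 0.743 and 1.60 CPM in controls and to 37.9 and 79.7 CPM in the DSS model, with S100a9 and Cxcr2 at 0 in both controls.

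Against the DSS model, mesalazine mice had 5.96-fold more Mt1 (log2 change 2.58, SE 0.68; adjusted p = 0.523) and 7.19-fold more Mt2 (2.85, SE 0.71; adjusted p = 0.523). The group means were 1468 ± 1152 CPM against 246 ± 141 CPM for Mt1, and 739 ± 491 CPM against 103 ± 82.8 CPM for Mt2 (SD, n = 2). Neither difference passed the adjusted threshold of 0.05 over 13381 genes. They ranked within the smallest 0.650% and 0.463% of p-values in that comparison, with higher levels in 2 of 2 mesalazine libraries. Another count test decided otherwise: DESeq2 gave an adjusted p of 0.0021 for Mt1 and 0.000749 for Mt2. Much of the size came from mesalazine 1, without which the log2 change was 1.40 for Mt1 and 1.91 for Mt2 (adjusted p = 0.488 and 0.446, edgeR). Both genes are short, which matters because the libraries differed by gene length: the lengths implied by the deposited values were 1045 bases for Mt1 and 556 bases for Mt2, against a median of 3492 bases. The correction for length, chosen after seeing the data, left the log2 changes at 2.33 and 2.52.

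Kuiyangling mice also had more of each metallothionein than the DSS model, by smaller amounts and with closer replicates. The log2 change was 1.24 for Mt1 (SE 0.65; 2.36-fold) and 1.58 for Mt2 (SE 0.68; 2.98-fold), with an edgeR adjusted p of 0.996 for each. The group means with Kuiyangling were 581 ± 102 CPM for Mt1 and 307 ± 46.7 CPM for Mt2 (SD, n = 2). Leaving out 1 library at a time kept the log2 change between 0.75 and 1.98 for Mt1 and between 0.93 and 2.79 for Mt2. The highest of these values came without DSS model 2 and the lowest without DSS model 1. The mesalazine and Kuiyangling comparisons share the DSS model libraries, so their values stand side by side here and are not independent. Compared directly, Kuiyangling was lower than mesalazine by 1.34 for Mt1 (SE 0.65; adjusted p = 0.999) and by 1.27 for Mt2 (SE 0.67; adjusted p = 0.999) on the log2 scale. Without mesalazine 1 these differences shrank to -0.18 and -0.36, and with the length correction to -0.75 and -0.44.

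**Figure D2:**
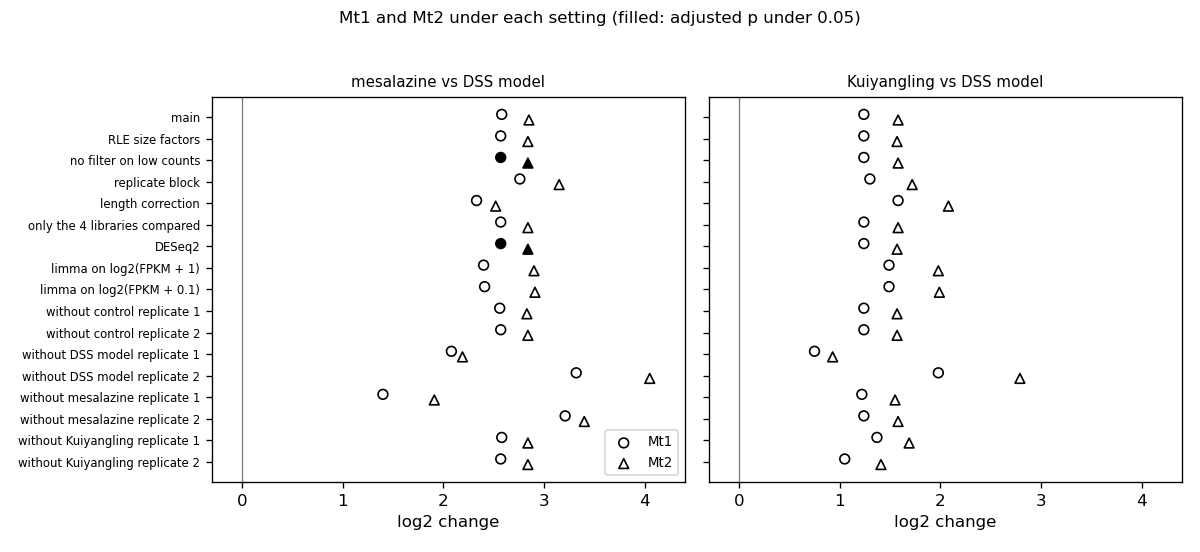
Log2 change (horizontal axes) of Mt1 (circles) and Mt2 (triangles) against the DSS model under each setting of the analysis (vertical axis), for mesalazine on the left and Kuiyangling on the right; filled symbols have an adjusted p under 0.05. All points lie above 0; the mesalazine values are lowest without mesalazine 1 (1.40 and 1.91) and pass the threshold without the filter on low counts and with DESeq2.

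The 3 comparisons with controls share the control libraries. Set against controls, mesalazine mice had a log2 change of 2.71 for Mt1 (SE 0.69; adjusted p = 0.0963, edgeR) and 2.47 for Mt2 (SE 0.70; adjusted p = 0.110). The same values for Kuiyangling were 1.37 (SE 0.66; adjusted p = 0.532) and 1.20 (SE 0.67; adjusted p = 0.636). The Kuiyangling values were 0.80 for Mt1 and 0.62 for Mt2 without control 1, and 2.33 and 2.14 without control 2. With the length correction Mt2 was at 1.17 with mesalazine and 0.73 with Kuiyangling. With DESeq2 the adjusted p for mesalazine was 0.00014 for Mt1 and 0.00116 for Mt2, and without mesalazine 1 the edgeR changes were 1.54 and 1.55. The 2 genes did not keep a fixed ratio: Mt1 FPKM divided by Mt2 FPKM was 1.76 in DSS model 1 and 1.14 in DSS model 2, and between 0.883 and 1.12 in the other 6 libraries. The longest exact run shared by their annotated transcripts is 20 bases (GENCODE M21).

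Because Mt1 and Mt2 varied together and Slc30a1, another textbook MTF1 target among the 8 genes, did not follow them, the promoter windows of these 3 genes are shown. Each window is RefSeq sequence on build GRCm38.p6, covers 250 bases before the annotated transcript start and 50 from it on, and is written 5′ to 3′ on the gene's strand. Capitals mark metal response element cores, TGCACNC or TGCGCNC on either strand. Mt1 and Mt2 are neighbouring protein-coding genes on chromosome 8, between Mt3 and Nup93. Their windows are chr8:94178839-94179138 and chr8:94172368-94172667, and that of Slc30a1 is chr1:191906531-191906830, all on the plus strand.
Mt1: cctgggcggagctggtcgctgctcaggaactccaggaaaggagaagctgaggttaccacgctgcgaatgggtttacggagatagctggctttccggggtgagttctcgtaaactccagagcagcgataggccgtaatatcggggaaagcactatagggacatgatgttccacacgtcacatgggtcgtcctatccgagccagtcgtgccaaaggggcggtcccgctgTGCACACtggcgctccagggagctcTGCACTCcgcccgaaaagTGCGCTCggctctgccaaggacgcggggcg
Mt2: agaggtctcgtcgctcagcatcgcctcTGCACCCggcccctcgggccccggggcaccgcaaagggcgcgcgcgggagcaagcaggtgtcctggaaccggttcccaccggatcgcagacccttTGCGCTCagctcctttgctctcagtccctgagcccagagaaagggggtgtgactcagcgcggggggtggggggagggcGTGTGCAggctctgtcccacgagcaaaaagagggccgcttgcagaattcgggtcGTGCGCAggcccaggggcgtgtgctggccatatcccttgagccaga
Slc30a1: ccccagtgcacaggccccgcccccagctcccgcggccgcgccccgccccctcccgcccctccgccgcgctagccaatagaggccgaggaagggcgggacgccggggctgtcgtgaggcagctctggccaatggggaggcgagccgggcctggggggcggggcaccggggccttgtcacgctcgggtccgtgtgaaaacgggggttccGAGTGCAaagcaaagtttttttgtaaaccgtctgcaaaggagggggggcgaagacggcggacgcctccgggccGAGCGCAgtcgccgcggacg

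The Mt2 window held 4 cores, the Mt1 window 3 and the Slc30a1 window 2. Of 32841 promoter windows of the same length, 25.7% held at least 1 core, 7.12% at least 2, 1.97% at least 3 and 0.518% at least 4. Counting the annotated transcript start as 0, the Mt1 cores begin at -23, 2 and 20, close to that annotated start. Which start the colon uses was not tested, and bases outside the windows were not searched. The Mt2 cores begin at -223, -128, -50 and 4, spread over the window. Windows were given for 6 of the 8 genes, 8 windows in all. The Slc30a10 window held 3 matches, of which 2 overlap on opposite strands, and 1 of 2 windows each of Slc39a5 and Slc39a8 held 1. A STAT element, TTCNNNGAA on either strand, was in 0 of the 8 windows against 8.30% of all windows. The full palindromic glucocorticoid response element was in 0 of 8 against 0.0579%. A match of letters is no evidence of binding, and no match says only that these letters are not in this window.

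**Figure D3:**
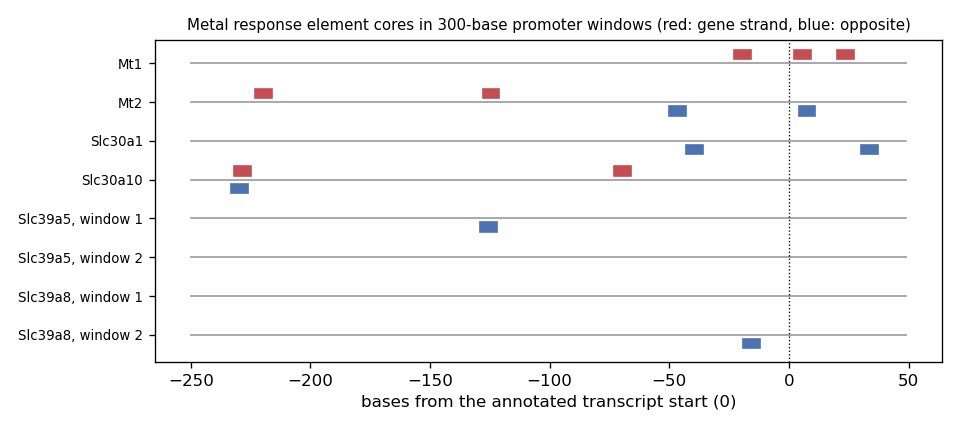
Positions of metal response element cores (boxes; red on the gene's strand, blue on the opposite strand) in the 8 promoter windows, in bases from the annotated transcript start (horizontal axis). Mt2 has 4 boxes spread over the window, and the 3 boxes of Mt1 lie within 26 bases of that annotated start.

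The importers Slc39a4 and Slc39a5 were higher with DSS than without it. Slc39a4 encodes ZIP4, the importer of dietary zinc on the luminal side of enterocytes. It stood at 237 and 184 CPM in controls, 529 and 413 CPM in the DSS model, 535 and 265 CPM with mesalazine, and 402 and 285 CPM with Kuiyangling. All 6 libraries of DSS mice were above the 2 controls, though mesalazine 2 and Kuiyangling 2 came close to control 1. In the DSS model Slc39a4 was 2.24-fold higher than in controls (log2 change 1.16, SE 0.38; adjusted p = 0.226, edgeR), with a mean of 471 ± 81.7 CPM against 211 ± 38.0 CPM (SD, n = 2). DESeq2 gave an adjusted p of 0.0581, and the length correction left the log2 change at 0.99.

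Slc39a5 encodes ZIP5, an importer of the basolateral side that moves zinc from blood into the enterocyte. Its replicates were close in 3 of the 4 groups: 86.9 and 85.7 CPM in controls, 138 and 129 CPM in the DSS model, and 108 and 107 CPM with Kuiyangling, with 154 and 109 CPM with mesalazine. The 6 libraries of DSS mice again lay above the 2 controls. The log2 change between the DSS model and controls was 0.63 (SE 0.26; 1.54-fold; adjusted p = 0.317, edgeR). Higher levels in all 6 DSS libraries than in both controls were found for 14.3% of tested genes (1908 of 13381).

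With treatment these 2 importers differed little from the DSS model. Kuiyangling libraries lay below both DSS model libraries for Slc39a4 (log2 change -0.46, SE 0.37) and Slc39a5 (-0.30, SE 0.26), with an adjusted p of 0.996 for each. The mesalazine values overlapped with the DSS model, at -0.24 (SE 0.37) for Slc39a4 and -0.02 (SE 0.26) for Slc39a5, each with an adjusted p of 1. The sign of these 2 mesalazine values depended on 1 library: without mesalazine 2 they were 0.18 and 0.20, and without mesalazine 1 they were -0.84 and -0.31. Against controls, Slc39a4 was higher by 0.93 with mesalazine (SE 0.38; adjusted p = 0.215) and by 0.71 with Kuiyangling (SE 0.38; adjusted p = 0.605) on the log2 scale.

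Slc39a8 and Slc39a14 were expressed at lower levels. Slc39a8 encodes ZIP8, which imports zinc, manganese and iron and is linked by human genetics to Crohn's disease. It stood at 44.5 and 20.9 CPM in controls, 35.3 and 39.5 CPM in the DSS model, 62.4 and 47.9 CPM with mesalazine, and 47.1 and 50.1 CPM with Kuiyangling. On the CPM scale every treated library was above every untreated one, by a narrow margin over control 1. The deposited FPKM, which are not TMM-scaled, overlapped, with 6.27 FPKM in control 1 against 5.92 FPKM in Kuiyangling 1. Against the DSS model the log2 change was 0.56 with mesalazine (SE 0.35; adjusted p = 0.966) and 0.38 with Kuiyangling (SE 0.35; adjusted p = 0.996).

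Slc39a14 encodes ZIP14, an importer of zinc, manganese and free iron whose gene responds to interleukin 6 in the liver. It stood at 41.6 and 30.8 CPM in controls, 31.3 and 32.3 CPM in the DSS model, 41.4 and 48.6 CPM with mesalazine, and 59.5 and 43.6 CPM with Kuiyangling. All 4 treated libraries were above both DSS model libraries, but mesalazine 1 was level with control 1. Against the DSS model the log2 change was 0.70 with Kuiyangling (SE 0.27; 1.62-fold; adjusted p = 0.996) and 0.50 with mesalazine (SE 0.27; adjusted p = 0.952). Between the DSS model and controls it was -0.19 (SE 0.27; adjusted p = 0.741), which became 0.13 with the length correction and 0.04 without control 1.

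The exporter Slc30a10 had its highest group mean with Kuiyangling, 73.4 ± 20.3 CPM against 47.9 ± 23.5 CPM with mesalazine (SD, n = 2). It encodes an exporter of manganese on the luminal side of enterocytes, although the Slc30 family is named for zinc. It stood at 36.3 and 9.68 CPM in controls, 33.6 and 20.4 CPM in the DSS model, 31.3 and 64.6 CPM with mesalazine, and 87.8 and 59.1 CPM with Kuiyangling. Both Kuiyangling libraries were above all control and DSS model libraries, while mesalazine 1 lay below control 1 and mesalazine 2 above Kuiyangling 2. Directly between Kuiyangling and mesalazine the log2 change was 0.61 (SE 0.56; adjusted p = 0.999), and 0.18 without mesalazine 1. The log2 change with Kuiyangling was 1.44 against the DSS model (SE 0.57; 2.72-fold; adjusted p = 0.996) and 1.67 against controls (SE 0.57; 3.18-fold; adjusted p = 0.322, edgeR). The comparison with controls depended on control 2, the library with the lowest level: it was 1.01 without control 2 and 2.91 without control 1. With no filter on low counts the adjusted p against controls was 0.0271, and with DESeq2 it was 0.0548.

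Slc30a1 encodes ZNT1, the zinc exporter of the plasma membrane and a target of MTF1. It stood at 102 and 111 CPM in controls, 89.3 and 82.3 CPM in the DSS model, 43.2 and 106 CPM with mesalazine, and 116 and 86.3 CPM with Kuiyangling. The DSS model libraries lay just below the controls, at a log2 change of -0.31 (SE 0.38; adjusted p = 0.703). The lowest value, in mesalazine 1, stood in the same library as the highest Mt1 and Mt2. Slc30a1 is long, with an implied length of 5360 bases, and mesalazine 1 was the library with the strongest shift away from long genes. The log2 change against the DSS model was -0.21 with mesalazine (SE 0.38; adjusted p = 1) and 0.23 with Kuiyangling (SE 0.38; adjusted p = 0.996), and the first turned to 0.29 without mesalazine 1. With the length correction the mesalazine value was -0.23.

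**Figure D4:**
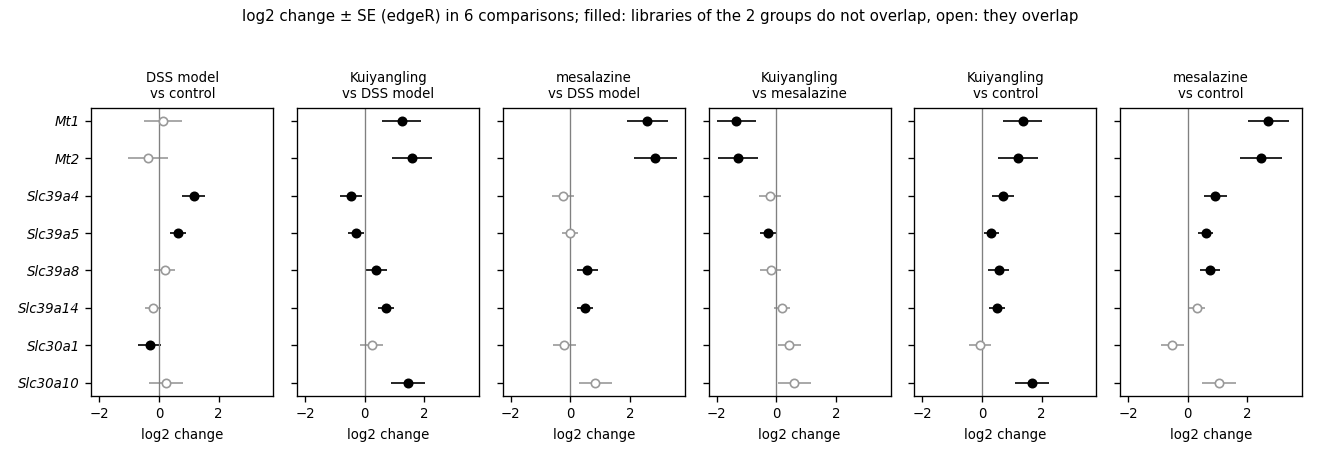
Log2 change with its standard error (horizontal axes, edgeR) of the 8 genes (vertical axis) in the 6 comparisons of the 4 groups. Filled points mark genes whose libraries do not overlap in CPM between the groups, however narrow the gap. The mesalazine panels show Mt1 and Mt2 farthest from 0, at 2.58 and 2.85 against the DSS model.

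Counted over the 8 genes, 0 passed the adjusted threshold in any of the 6 comparisons with edgeR. In the DSS model against controls 33 of 13381 tested genes were called (0.247%), and 2 of the 8 genes had an unadjusted p under 0.05, as did 14.8% of all tested genes. For 3 of the 8 genes the DSS model and control libraries were separate, against 53.4% of all tested genes, and the median log2 change was 0.16 against -0.04 for all genes. For Kuiyangling against the DSS model 0% of tested genes were called and 3 of the 8 genes had an unadjusted p under 0.05, among 476 of all genes (3.56%). There 7 of the 8 did not overlap, 5 of them higher, against 43% of all genes, with a median of 0.54 against 0.

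For mesalazine against the DSS model 0% were called, and 2 of the 8 genes were among the 735 (5.49%) with an unadjusted p under 0.05. Here 4 of 8 did not overlap, all higher, against 27.7% of all genes, with a median of 0.53 against 0.04. Between Kuiyangling and mesalazine 0% were called and 0 of the 8 genes had an unadjusted p under 0.05, among 254 of all genes (1.90%). There 3 of 8 (Mt1, Mt2, Slc39a5) did not overlap in CPM, all lower with Kuiyangling, against 22.1%. The gap was a near tie for Mt1 (653.1 against 653.5 CPM) and Slc39a5 (108.4 against 108.6 CPM). In FPKM these near ties overlapped: Kuiyangling 2 was above mesalazine 2 for Mt1 (683 against 653 FPKM) and Slc39a5 (53.4 against 51.5 FPKM). Against controls, Kuiyangling had 32 called genes (0.239%) and 7 of the 8 genes not overlapping, all higher, against 49.1%. Mesalazine had 90 called genes (0.673%) and 5 of the 8 not overlapping, all higher, against 45.7%. Unadjusted p under 0.05 held for 1 of the 8 genes with Kuiyangling and 4 with mesalazine in these last comparisons, against 10.3% and 20.0% of all tested genes. DESeq2 called 2 of the 8 genes, Mt1 and Mt2, in each mesalazine comparison with the DSS model or controls and 0 in the other 4 comparisons. Over all genes DESeq2 called 91 for mesalazine against the DSS model and 982 against controls, compared with 0 and 90 for edgeR. Limma on log2 FPKM called 0 of the 8 genes in all 6. Higher levels in all 4 treated than in all 4 untreated libraries held for 3 of the 8 genes (Mt1, Mt2, Slc39a8) and for 1.91% of tested genes.

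Across the 8 libraries some of the genes varied together, which is given as a description, since the points share group differences, depth and the length shifts described above. Pearson's r of log2 CPM was 0.975 for Mt1 with Mt2, 0.931 for Slc39a4 with Slc39a5 and 0.862 for Slc39a14 with Slc30a10. Mt1 and Slc39a4 were nearly unrelated, at 0.279, and Mt1 and Slc30a1 went in opposite directions, at -0.64. Among 10053 genes of at least 5 CPM, the genes most like Mt1 were Mt2, Cyp4f14 (r = 0.973), a cytochrome P450 that acts on leukotriene B4 and fatty acids, and Ppp2r5c (0.962), a regulatory subunit of protein phosphatase 2A. Mt2 was most like Mt1, Ppp2r5c and the autophagy gene Atg16l1 (0.969 each for the last 2). Slc39a4 was most like Gsto1 (0.988), a glutathione transferase, Tmed4 (0.983) and Ubxn8 (0.979). Slc39a5 was most like Slc7a7 (0.988), a basolateral transporter of cationic amino acids, Sqor (0.979), the sulfide oxidase of mitochondria, and the signal peptidase subunit Spcs2 (0.979).

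The remaining genes had the following nearest patterns. Slc39a14 was nearest to Ugt1a1 (r = 0.945), Txnrd3 (0.941) and Trdmt1 (0.912), and Slc30a10 to Tbx3 (0.969), Hoxb3 (0.968) and Flrt3 (0.949), of which Tbx3 and Hoxb3 are developmental transcription factors. Slc39a8 was nearest to Brcc3 (0.966), Utp14a (0.965) and Zfp207 (0.961). Slc30a1 was nearest to the transcription factors Ets2 (0.979) and Ubp1 (0.976) and to Cwc25 (0.975). The 6 small intestine markers, which include the brush border enzymes Alpi and Sis, summed to 76.5 and 71.8 CPM in controls, 124 and 160 CPM in the DSS model, 177 and 261 CPM with mesalazine, and 200.4 and 171 CPM with Kuiyangling. All 6 were detected in 5 libraries, and Defa24, a Paneth cell defensin, was at 0 in both controls and Kuiyangling 2. Those sums were thus higher in all treated libraries than in all untreated ones, as were Mt1 and Mt2. Alpi, the largest part of each sum, overlapped, with 145 CPM in DSS model 2 against 127 and 129 CPM with mesalazine. Fabp6, Lyz1 and Defa24 overlapped too, while Sis and Apoa4 were each higher in every treated library. The part of these markers in the results was not tested.

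**Figure D5:**
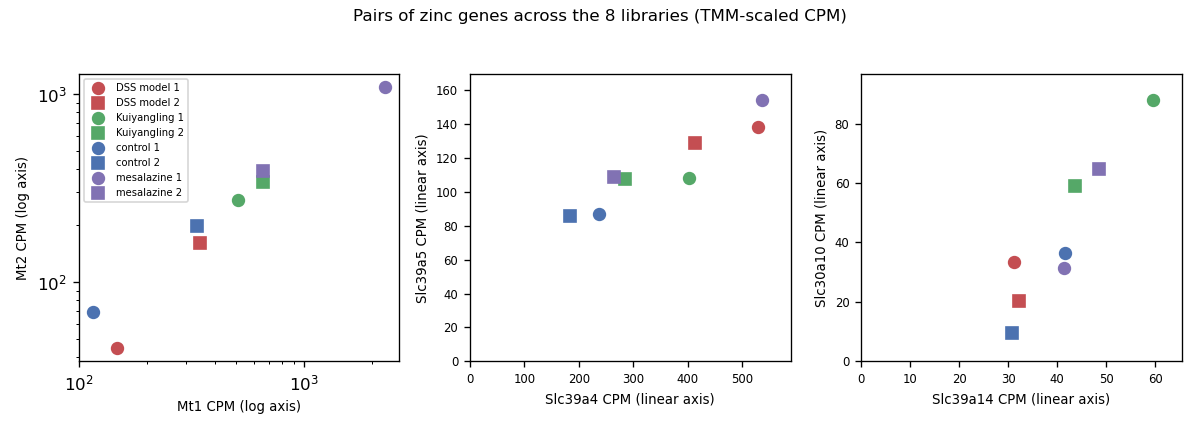
Scaled CPM of 3 pairs of genes in the 8 libraries, Mt1 with Mt2 (log axes) and Slc39a4 with Slc39a5 and Slc39a14 with Slc30a10 (linear axes from 0); colours are groups, circles replicate 1 and squares replicate 2. In the first panel mesalazine 1 lies apart at 2283 and 1087 CPM, and in the second the 2 controls lie lowest.

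Of 10 other ZIP importers 8 were tested, and over the 6 comparisons edgeR, DESeq2 and limma called 0 of them. Their unadjusted edgeR p-values were under 0.05 in 2 cases, against 1.9% to 20% of all tested genes, depending on the comparison. In the DSS model against controls 2 did not overlap upward and 2 downward, against 53.4% of all tested genes in either direction. Slc39a1, an importer of the plasma membrane, was at a log2 change of 0.70 (SE 0.27; adjusted p = 0.279), Slc39a13 at -0.76 (SE 0.35; adjusted p = 0.342) and Slc39a6 at -0.56 (SE 0.44; adjusted p = 0.538). Of 8 other Slc30 exporters 6 were tested, and edgeR and limma called 0 over the 6 comparisons. Their unadjusted edgeR p-values were under 0.05 in 3 cases, against the same 1.9% to 20% of all tested genes. In the DSS model against controls 4 of the 6 did not overlap upward and 1 downward, against 53.4% of all tested genes in either direction. Those upward included Slc30a6 of the secretory pathway at 0.67 (SE 0.25; adjusted p = 0.275), Slc30a7 at 0.30 (adjusted p = 0.584) and Slc30a2 at 1.12 (adjusted p = 0.426). Slc30a2, which loads zinc into vesicles, was low everywhere, from 0.396 and 0.493 CPM in controls to 2.55 and 2.57 CPM with mesalazine (log2 change 2.51, SE 0.65; adjusted p = 0.0990, edgeR). DESeq2 called it there, as the 1 exporter of the list, with an adjusted p of 0.0316.

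The sensor and the minor metallothioneins gave 0 calls with edgeR, DESeq2 or limma over the 6 comparisons. They gave 1 unadjusted edgeR p under 0.05, that of Mtf1 with mesalazine against controls, where 20% of all tested genes had one. Mtf1, the gene of the zinc sensor, stood at 29.3 and 57.1 CPM in controls, 27.2 and 30.2 CPM in the DSS model, 20.2 and 25.1 CPM with mesalazine, and 24.5 and 29.2 CPM with Kuiyangling. Its lowest value was in mesalazine 1, followed by Kuiyangling 1. With mesalazine the log2 change was -0.93 against controls (SE 0.33; adjusted p = 0.173) and -0.34 against the DSS model (SE 0.33; adjusted p = 1). Mt3 ranged from 2.10 to 15.57 CPM with its highest value in mesalazine 1, and Mt4 from 0.0495 to 2.33 CPM. Between the DSS model and controls the log2 change was 0.25 for Mt3 (SE 0.72; adjusted p = 0.876) and 2.40 for Mt4 (SE 1.40; adjusted p = 0.419).

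Copper genes were given because metallothioneins also bind copper. All 8 listed copper genes were tested, and edgeR, DESeq2 and limma called 0 of them over the 6 comparisons. Their unadjusted edgeR p-values were under 0.05 in 4 cases, against 1.9% to 20% of all tested genes, depending on the comparison. In the DSS model against controls Cox17, the copper chaperone of cytochrome oxidase, was at 0.84 (SE 0.32; adjusted p = 0.280), Atox1, the chaperone of the secretory pathway, at 0.75 (SE 0.36; adjusted p = 0.355) and Commd1 at 0.67 (SE 0.33; adjusted p = 0.365). With the length correction the values were 0.16 for Cox17, -0.14 for Atox1 and 0.76 for Commd1.

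Genes that glucocorticoids induce were listed because Mt1 and Mt2 are among such genes. Of 7 listed, 1 was called by edgeR, in 1 comparison: Depp1, a FOXO target, rose with mesalazine against controls (log2 change 4.02, SE 0.51; adjusted p = 0.0216, edgeR). Over the 6 comparisons DESeq2 gave 7 calls, limma on log2 FPKM gave 1, and 14 unadjusted edgeR p-values were under 0.05. Of all tested genes, 1.9% to 20% had such a p, depending on the comparison. DESeq2 called many genes in all, with 435 in the DSS model, 349 with Kuiyangling and 982 with mesalazine against controls. With Kuiyangling against controls DESeq2 called Depp1 (log2 change 1.89, adjusted p = 0.0256) and Tsc22d3 (-1.63, adjusted p = 0.00507). Depp1 stood at 1.29 and 0.802 CPM in controls, 1.38 and 0.928 CPM in the DSS model, 23.3 and 11.3 CPM with mesalazine, and 4.52 and 3.32 CPM with Kuiyangling. As with Mt1 and Mt2, the treated libraries were all above the untreated ones, with mesalazine 1 the highest. The edgeR call was lost without control 2 (adjusted p = 0.173) and without mesalazine 1 (adjusted p = 0.0902). Against the DSS model the log2 change of Depp1 was 3.89 with mesalazine (SE 0.51; adjusted p = 0.203, edgeR; 6.31e-09, DESeq2) and 1.75 with Kuiyangling (SE 0.49; adjusted p = 0.996). Across the list 7 of 7 estimates were above 0 with mesalazine against the DSS model, with a median log2 change of 0.78. Of these, 5 did not overlap upward, against 27.7% of all tested genes in either direction. With Kuiyangling against the DSS model 6 were above 0 (median 0.73) and 4 did not overlap upward, against 43%. In the DSS model against controls 5 were below 0. Among single genes, Tsc22d3, the gene of GILZ, was at -1.43 in the DSS model against controls (SE 0.39; adjusted p = 0.165, edgeR; 0.0214, DESeq2). It was at 0.04 with mesalazine and -0.19 with Kuiyangling against the DSS model. Sgk1, a kinase that controls sodium transport, was at -1.50 in the DSS model (SE 0.49; adjusted p = 0.233, edgeR; 0.0394, DESeq2) and at 1.26 with mesalazine against it (SE 0.49; adjusted p = 0.805). Zbtb16, a transcription factor, was at -3.19 in the DSS model (SE 1.06; adjusted p = 0.235) on levels of 0.133 to 3.33 CPM.

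Calprotectin, the zinc-binding protein of neutrophils, is encoded by S100a8 and S100a9, and these 2 genes rose with DSS. S100a8 stood at 0 and 0.0617 CPM in controls, 9.62 and 18.4 CPM in the DSS model, 9.27 and 3.56 CPM with mesalazine, and 2.79 and 2.23 CPM with Kuiyangling. S100a9 had 0 counts in both controls and stood at 10.9 and 21.0 CPM in the DSS model, 10.9 and 2.86 CPM with mesalazine, and 3.65 and 2.23 CPM with Kuiyangling. The edgeR adjusted p for the DSS model against controls was 0.00611 for S100a8 and 0.0168 for S100a9. Mesalazine mice were called against controls for both genes (0.0216 and 0.0268) and Kuiyangling mice for S100a8 (0.0429). The DSS model calls were lost without control 2 (adjusted p = 0.0679 and 0.108), and that of S100a9 also without DSS model 2 (0.062). The mesalazine calls were lost without mesalazine 1 (0.0803 and 0.0902) or control 2 (0.155 and 0.181), and the Kuiyangling call without any 1 of the control, DSS model or Kuiyangling libraries (0.0543 to 0.238). By group mean both calprotectin genes were highest in the DSS model, in which Mt1 and Mt2 were at control levels within their spread. Mesalazine 1, the library highest in Mt1 and Mt2, had calprotectin levels close to those of DSS model 1. A relation between calprotectin and the metallothioneins was not tested. Against the DSS model, S100a8 was at -2.48 (SE 0.56) and S100a9 at -2.44 (SE 0.64) with Kuiyangling, each with an edgeR adjusted p of 0.996 (0.0136 for S100a8 with DESeq2), and at -1.13 (SE 0.53; adjusted p = 0.910) and -1.22 (SE 0.61; adjusted p = 0.926) with mesalazine.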

How the data were processed

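Polyadenylated RNA of 8 libraries was measured. The deposited counts are whole reads per gene made by the authors. The deposited FPKM values are the same counts scaled to a fixed length of each gene and to library totals. This was checked on values of at least 50 counts, of which 100% were within 0.1%. The submitters' processing notes name Trimmomatic and HISAT2 without versions; build, counter and strand setting are not given in the sources used here. The members and lists were chosen with earlier results of these data known.

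Genes passing filterByExpr by group were fitted with edgeR 4.0.16 (R 4.3.3; TMM, quasi-likelihood, 1 mean per group, all 8 libraries, Benjamini-Hochberg over 13381 genes), with a common biological coefficient of variation of 0.287. Log2 CPM used a prior count of 2. Alternatives used DESeq2 1.42.0 and limma 3.58.1 on log2(FPKM + 1) or log2(FPKM + 0.1). A count of 3, taken as a floor, is 0.149 to 0.212 CPM. The edgeR fit was tested on simulated counts, which held none of the length shifts described above. It recovered 10% to 28% of 2-fold changes and 70% to 90% of 4-fold changes, with 6 to 9 false calls per comparison. Besides the 8 members, genes of the lists were named if called in any comparison or among the 3 smallest p-values of their list in the DSS model against controls, and the 3 genes most correlated with each member. Promoter windows and gene neighbours come from RefSeq, and transcripts from GENCODE M21. Same-numbered libraries did not deviate together, so numbers were not treated as pairs. The 2 animals of a group are its replicates.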

Additional observations from a re-analysis of the deposited data

How the results depend on the processing

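The 8 genes gave 768 estimates over all settings and comparisons, of which 725 kept their direction and side of the threshold, 16 passed the threshold only in the alternative and 27 changed sign. Of the 8 genes, mesalazine against the DSS model gave 2 called with no filter on low counts and 2 with DESeq2 (Mt1 and Mt2). Kuiyangling against control gave 1 with no filter (Slc30a10). Mesalazine against control gave 2 with no filter, 2 with only the 4 libraries compared and 2 with DESeq2, and 0 to 5 when 1 library was left out. The 5 (Mt1, Mt2, Slc39a4, Slc39a5, Slc30a1) came without mesalazine 2, where mesalazine 1 is assumed to vary like the other groups and 2717 genes are called in all. Over all genes the calls went from 33 to 435 with DESeq2 and 487 with no filter in the DSS model against control, from 0 to 91 and 104 for mesalazine against the DSS model, from 0 to 13 and 11 for Kuiyangling against the DSS model, from 32 to 349 and 451 for Kuiyangling against control, and from 90 to 982 and 1090 for mesalazine against control. Limma on log2(FPKM + 1) lowered the 3 comparisons with control to 19, 7 and 11 calls, in the order DSS model, Kuiyangling and mesalazine. Leaving out 1 library gave 1 to 159, 1 to 171 and 1 to 2717 calls in the same order, with 1 call in each without control 2; the 2717 came without mesalazine 2. For mesalazine against control the length correction gave 37 calls and the fit of only the 4 libraries compared gave 315. The causes were not tested.

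With the replicate block 0 of the 8 genes were called in each comparison and all 48 estimates kept their direction; over all genes the block gave 50 calls against 33 in the DSS model against control and 65 against 32 for Kuiyangling against control. Same-numbered libraries had correlated deviations of -0.311 to 0.162 between groups, so the numbers are not a pairing.

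In the DSS model against control the length correction gave -0.49 for Mt1, 0.13 for Slc39a14, -0.29 for Depp1, -0.57 for Mt3 and -0.14 for Atox1, and limma gave -0.01 for Depp1 with either pseudocount. For Kuiyangling against mesalazine limma gave 0.02 for Slc39a4 and 0 for Slc39a8 with either pseudocount, and the length correction gave 0 for Slc39a14. For Kuiyangling against control the length correction gave 0.02 for Slc30a1. Leaving out 1 library in turn gave ranges across 0. For the DSS model against control these were -0.60 to 1.09 for Mt1, -1.59 to 0.56 for Mt2, -0.25 to 0.83 for Slc39a8, -0.39 to 0.04 for Slc39a14, -0.43 to 1.47 for Slc30a10, -0.18 to 0.52 for Depp1, -1.56 to 4.26 for Mt4 and -0.05 to 0.52 for Mt3. For Kuiyangling against the DSS model the range was -0.02 to 0.43 for Slc30a1. For mesalazine against the DSS model they were -0.84 to 0.18 for Slc39a4, -0.31 to 0.20 for Slc39a5 and -0.99 to 0.29 for Slc30a1. For Kuiyangling against mesalazine they were -0.64 to 0.37 for Slc39a4, -0.36 to 0.01 for Slc39a8, -0.07 to 0.40 for Slc39a14 and -0.07 to 1.23 for Slc30a1, and for Kuiyangling against control -0.32 to 0.13 for Slc30a1. The causes were not tested.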
